A study of Mus musculus with 6 samples.

Results

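The RNA of 9 enzymes of fatty acid oxidation was followed in mammary epithelial cells from pubertal mice, from the genes *Cpt1a*, *Cpt1b*, *Cpt2*, *Acadm*, *Acadl*, *Acadvl*, *Hadha*, *Hadhb* and *Ehhadh*. They were chosen by name. For each, the row of the deposited gene table that carries the symbol was taken, together with the sum of all rows that share its locus number, because the transcript assembly can divide 1 gene over several rows. The 9 genes lay at 9 loci that held 13 rows, of 61880 rows and 53912 loci in the whole table, and all 9 passed the filter on low counts. RNA-Seq was performed on epithelial cells of the inguinal gland from female FVB/NJ mice aged 6 to 8 weeks, in 3 *fat-1* and 3 wildtype (WT) samples, each pooled from several animals. *Fat-1* mice carry a *C. elegans* desaturase, expressed throughout the body, that makes *n*-3 from *n*-6 polyunsaturated fatty acids (PUFA). Both groups ate a modified AIN93G diet with 10% safflower oil by weight, which supplies 22% of the energy and is rich in *n*-6 PUFA, and their parents had eaten it before them. The comparison asks whether cells that differ in *n*-3 PUFA, on 1 diet, differ in the RNA of the enzymes that burn fatty acids. The RNA of the transgene itself was not analysed here.

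Long-chain fatty acids enter the mitochondrion as carnitine esters. Carnitine palmitoyltransferase 1 on the outer membrane makes the ester and is the main point of control, since malonyl-CoA inhibits it; *Cpt1a* encodes the widely expressed liver form and *Cpt1b* the form typical of muscle and brown fat. Carnitine palmitoyltransferase 2 (*Cpt2*) on the inner membrane turns the ester back into acyl-CoA. Beta-oxidation then shortens the chain in repeated cycles, each of which begins with an acyl-CoA dehydrogenase for very long (*Acadvl*), long (*Acadl*) or medium (*Acadm*) chains. *Hadha* and *Hadhb* encode the alpha and beta subunits of the mitochondrial trifunctional protein, which carries out the later steps on long chains, and *Ehhadh* encodes a bifunctional enzyme of the peroxisome. In the virgin gland the epithelium lies within a fat pad, so fatty acids are abundant around it, and many genes of this pathway are known targets of the nuclear receptor PPAR alpha, for which PUFA are ligands.

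Some stretches of mouse sequence help in reading the values. The first is the exon junction that sets apart *Gm44502*, a gene whose row shares the *Cpt1b* locus. In the GENCODE M21 annotation of GRCm38 *Cpt1b* lies on the minus strand at chr15:89416405-89425863 and *Chkb*, which encodes the choline kinase beta of phosphatidylcholine synthesis, lies just upstream of it at chr15:89426360-89429908. *Gm44502* (chr15:89416405-89429696, minus strand) is annotated as a readthrough transcript of 27 exons, of which 10 lie before this junction, towards *Chkb*, and 17 after it, towards *Cpt1b*. It contains 2744 of the 3372 exon bases of *Cpt1b* (81.4%), so that a read from these bases can be assigned to either gene. Below, 15 bases of exon 10 that fall in *Chkb* exons are in lower case and 15 bases of exon 11 that fall in *Cpt1b* exons are in capitals.
Gm44502 junction of exons 10 and 11: gggctgtgcctcaaaGTGCTGAATAAACCC

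*Hadha* (chr5:30118304-30155162, minus strand) and *Hadhb* (chr5:30155248-30184593, plus strand) start back to back, with 85 bases between their annotated ends. This interval, chr5:30155163-30155247 on the plus strand of GRCm38.p6, is shown because the 2 subunits are read from opposite sides of it; capitals mark the letters GGGCGG, the core of the GC box bound by Sp1.
Between Hadha and Hadhb: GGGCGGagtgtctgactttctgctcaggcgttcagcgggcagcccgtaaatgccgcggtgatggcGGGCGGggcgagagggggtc
The 250 bases before the RefSeq start of the 3 acyl-CoA dehydrogenase genes are shown because these genes serve the same step of the cycle at levels far apart. Capitals mark GGGCGG, or its complement CCGCCC, and AGGTCA, or its complement TGACCT, which is the half-site recognised by nuclear receptors such as PPAR alpha. All 3 are on the minus strand of their chromosome and contain no GENCODE exon.
Acadl, chr1:66863310-66863559: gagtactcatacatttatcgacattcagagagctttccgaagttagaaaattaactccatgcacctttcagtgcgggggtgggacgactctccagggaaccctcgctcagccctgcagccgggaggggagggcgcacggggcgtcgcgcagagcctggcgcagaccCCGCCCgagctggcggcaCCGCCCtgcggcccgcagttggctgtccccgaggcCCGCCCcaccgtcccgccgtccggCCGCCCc
Acadm, chr3:153944644-153944893: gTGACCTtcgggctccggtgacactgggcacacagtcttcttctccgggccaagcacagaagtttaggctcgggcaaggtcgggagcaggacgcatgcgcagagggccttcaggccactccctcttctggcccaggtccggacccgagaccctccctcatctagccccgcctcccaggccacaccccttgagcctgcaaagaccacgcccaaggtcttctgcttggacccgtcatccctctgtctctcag
Acadvl, chr11:70015429-70015678: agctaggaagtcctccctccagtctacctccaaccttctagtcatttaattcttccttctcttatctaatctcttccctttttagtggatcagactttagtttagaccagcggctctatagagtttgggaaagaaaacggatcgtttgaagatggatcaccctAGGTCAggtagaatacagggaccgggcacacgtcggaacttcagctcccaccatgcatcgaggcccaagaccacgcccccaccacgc
A RefSeq window from 250 bases before to 50 bases after the start was at hand for 8 of the 9 genes, *Cpt1b* being the one without. On either strand, AGGTCA occurred in 3 of these 8 windows (*Acadm*, *Acadvl* and *Cpt1a*) and in 16.3% of all 32851 windows, and GGGCGG in 6 of 8 and 35.7%. The windows of *Hadha* and *Hadhb* cover largely the same DNA, so a GGGCGG that lies in both was counted for each gene. CCAAT was found in 2 of 8 (*Ehhadh* and *Cpt1a*) and 37.4%, and TATAAA in 0 of 8 and 13.6%. An exact match to the PPAR element of direct-repeat form, AGGTCA repeated after 1 base, occurred in 0 of 8 windows and in 0.0396% of all. TCAAGGTCA, the extended half-site of the estrogen-related receptors, occurred in 0 of 8 and 0.423%. AGGTCA lies within both of these longer motifs. With motifs this rare, 0 of 8 cannot tell the members from other genes, and imperfect or more distant sites were not searched.

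The deposited counts added up to 204539059 to 232148824 per sample. CPM is the count of a gene scaled to the total of its sample, and 3 counts corresponded to 0.0129 to 0.0147 CPM. Levels are given in CPM after TMM scaling (a correction for differences in RNA makeup), and the spread is the SD of 3 samples. Marker RNA of several cell types differed between samples. The summed level of 14 luminal markers ranged from 1099 to 4724 CPM in *fat-1* and from 1182 to 3782 in WT mice, that of 9 basal markers from 165 to 624 and from 158 to 505, and that of 10 immune markers from 1109 to 2461 and from 1135 to 2505. All genes of these 3 lists were detected in every sample, with *Cldn4* (237 to 1155 CPM), *Myh11* (48.3 to 152) and *Cd74* (452 to 1030) the highest. The adipocyte list summed to between 27.6 and 37.7 CPM in *fat-1* and between 30.1 and 34.8 in WT mice, nearly all of it *Lipe* (23.7 to 34.6), and the defining genes *Adipoq* and *Plin1* stayed at or below 0.500 CPM. Fibroblast markers, led by *Dcn* (898 to 2080), summed to 1644 to 6380 and 3493 to 5929 CPM, and endothelial markers, led by *Pecam1* (59.7 to 119), to 197 to 246 and 222 to 271. Brown adipocyte markers, led by *Dio2* (2.06 to 6.02), summed to 3.38 to 5.58 and 5.29 to 7.64 CPM. In sample order, *Dio2* had 2.47, 2.06 and 3.04 CPM in *fat-1* and 4.57, 6.02 and 3.79 CPM in WT mice. Its groups did not overlap, as in 4.15% of the 24061 loci tested, while those of the other genes of this list did. *Ucp1* had 0.289, 0.322 and 0.255 CPM in *fat-1* and 0.178, 0.344 and 0.321 CPM in WT samples. *Cidea* was highest in *fat-1* sample 1, with 2.41, 0.452 and 0.332 CPM in *fat-1* and 1.14, 0.724 and 0.559 CPM in WT samples. After adjustment for multiple testing, 0 genes of the list passed. Whether *Dio2* is related to *Cpt1b* was not tested. Skeletal muscle markers, led by *Mb* (0.910 to 2.73), summed to 4.15 to 4.96 and 3.32 to 4.95. In bulk samples such as these, fewer cells of a type and less RNA per cell cannot be told apart.

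Which forms of the enzymes did these cells express? Levels of different genes were compared per kilobase (kb) of annotated exon, as means ± SD of all 6 samples. *Acadl* was by far the highest, at 99.3 ± 20.2 CPM per kb, and *Acadvl* followed at 24.7 ± 2.62. *Cpt2* (10.4 ± 1.79), *Hadha* (9.49 ± 0.560) and *Cpt1a* (8.38 ± 1.92) overlapped in their ranges over samples. *Hadhb* (6.77 ± 0.386) and *Acadm* (5.86 ± 0.338) came next, with ranges of 6.31 to 7.28 and 5.30 to 6.17. *Ehhadh* (1.33 ± 0.138) and the *Cpt1b* row (1.10 ± 0.203) were the lowest and overlapped. The top and the bottom of this order did not depend on the length used, but the middle did. Divided by the longest transcript in place of all exons, *Hadha* stood at 20.6 and *Cpt1a* at 14.8 CPM per kb, both above *Cpt2* at 10.5.

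**Figure D1:**
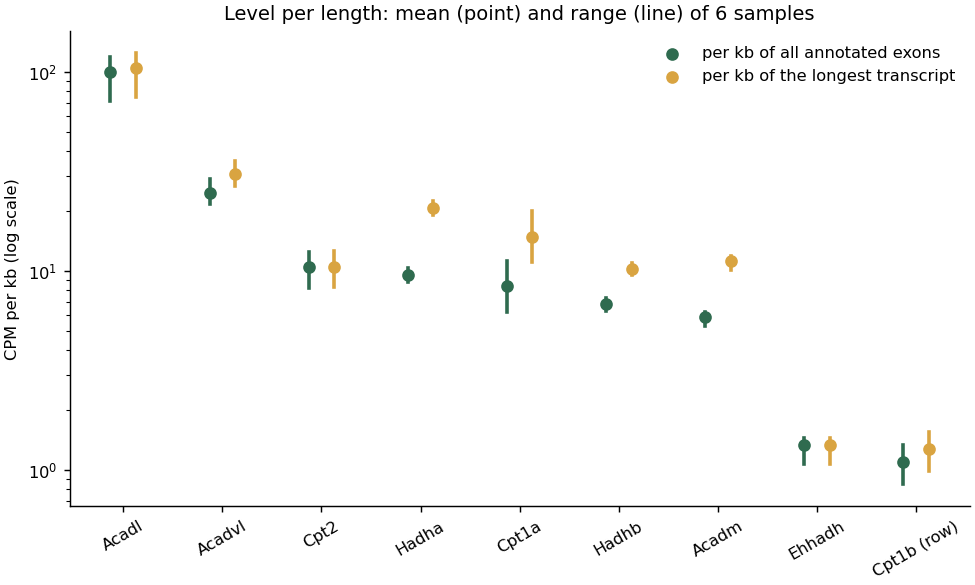
Level of each gene in CPM per kb (log scale), as the mean (point) and range (line) of 6 samples, divided by all annotated exons (green) or by the longest transcript (yellow). *Acadl* lies highest near 100 and *Ehhadh* and the *Cpt1b* row lowest near 1 with either length, while *Hadha*, *Cpt1a* and *Acadm* move with the length chosen.

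Of the carnitine palmitoyltransferases, *Cpt1a* varied most between samples. Its level was 86.0, 47.6 and 53.3 CPM in *fat-1* and 75.2, 66.9 and 55.2 CPM in WT mice, samples 1, 2 and 3 in this order here and below. The highest and the 2 lowest values were all from *fat-1* mice, and the groups overlapped. The difference was -0.08 on the log2 scale (SE 0.25, 95% confidence interval -0.67 to 0.52, adjusted p = 1.00 by the quasi-likelihood test of edgeR), so a change of up to 1.43-fold upward or 0.627-fold downward was not resolved. This estimate rested on single samples: without *fat-1* sample 1 it was -0.37, and without *fat-1* sample 2 it was 0.08. *Cpt2* stood at 29.7, 19.6 and 24.8 CPM in *fat-1* and 27.9, 27.4 and 19.9 CPM in WT samples. Each group again held 1 sample near the bottom of the range, and the difference was -0.02 (SE 0.20, interval -0.51 to 0.47). Per kb, the log2 ratio of *Cpt2* to *Cpt1a* was 0.37 ± 0.22 in *fat-1* and 0.28 ± 0.10 in WT mice (n = 3 each, exact permutation test, two-sided, p = 0.6; the smallest p possible with 3 against 3 is 0.1). None of the ratios tested here, 5 in all, reached that smallest value.

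The direction of *Cpt1b* turned on which rows were read. The row with its symbol held 4.07, 4.48 and 4.20 CPM in *fat-1* samples and 2.85, 2.92 and 3.63 CPM in WT samples (855, 959 and 876 against 610, 660 and 747 counts). The 3 *fat-1* values all lay above the 3 WT values, at 4.25 ± 0.209 against 3.13 ± 0.431 CPM. The log2 fold change was 0.44 (SE 0.17, interval 0.03 to 0.86), with an unadjusted p of 0.0409 and an adjusted p of 1.00 by edgeR over the 30683 rows tested. Among all rows, 2.21% had an unadjusted p of at most 0.05, and in 5.26% the groups did not overlap.

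The row of *Gm44502* ran the other way. It held 153, 0 and 0 counts in *fat-1* samples and 1296, 721 and 243 counts in WT samples, or 0.729, 0 and 0 against 6.05, 3.19 and 1.18 CPM. The groups did not overlap. If the deposited counts are taken as numbers of reads with counting error alone, a count of 0 allows at most 0.0141 CPM in each of *fat-1* samples 2 and 3. This bound leaves out reads of the shared exons that were counted for *Cpt1b*. The test gave an unadjusted p of 0.0733 and an adjusted p of 1.00 by edgeR. A row with no symbol held 36, 90 and 69 counts in *fat-1* and 839, 97 and 43 in WT samples, so WT sample 1 alone was high. *Chkb* made up most of the locus, with 46.4, 44.9 and 41.8 CPM in *fat-1* and 39.6, 43.4 and 46.0 CPM in WT samples, and its groups overlapped (log2 fold change 0.05, SE 0.12).

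**Figure D2:**
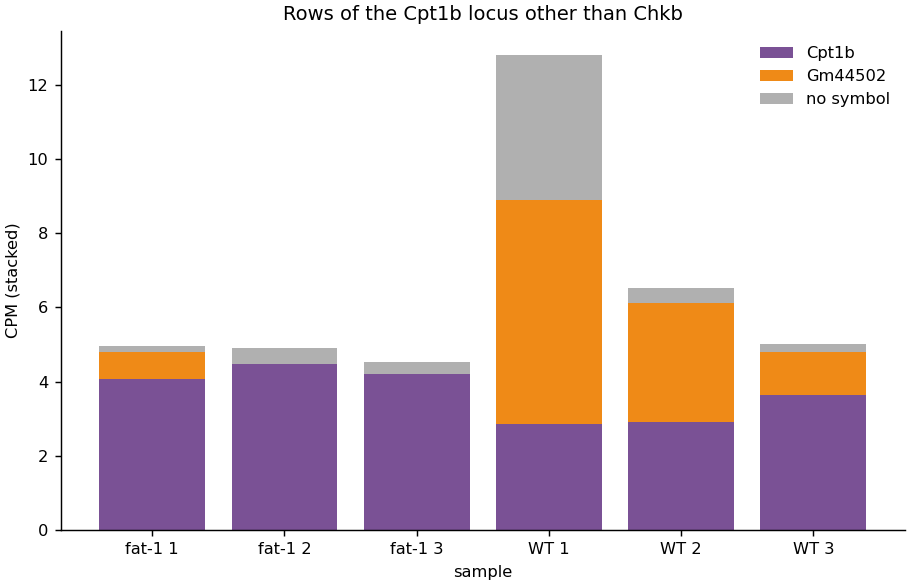
Level in CPM of the rows of the *Cpt1b* locus other than *Chkb*, stacked, in each of the 6 samples. The *Cpt1b* row (purple) is taller in the 3 *fat-1* samples, while *Gm44502* (orange) adds 1.18 to 6.05 CPM in the WT samples and at most 0.729 in the *fat-1* samples.

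Added together, the whole locus stood at 51.2, 49.7 and 46.5 CPM in *fat-1* and 52.5, 49.8 and 51.1 in WT samples (log2 fold change -0.06, SE 0.09), of which *Chkb* supplied 90.2% ± 0.0829 of the counts in *fat-1* and 84.2% ± 7.67 in WT mice. The *Cpt1b* row supplied 8.66% ± 0.640 and 6.13% ± 0.870 of them (exact permutation test, two-sided, p = 0.1; adjusted p = 0.2 over 2 loci with several rows). Without the rows that carry another symbol, the sum differed by -0.03 (SE 0.28) and the groups overlapped. Without the *Chkb* row alone, a sum chosen after its rows had been seen, the counts were 1044, 1049 and 945 in *fat-1* and 2745, 1478 and 1033 in WT samples. On the CPM scale the WT samples then lay above the *fat-1* samples (8.13 ± 4.14 against 4.79 ± 0.219, log2 fold change -0.76, SE 0.35, unadjusted p = 0.0687 by edgeR). Reads of *Cpt1b*, *Gm44502* and the row with no symbol could not be told apart in these files beyond their deposited counts, so the direction of *Cpt1b* itself is uncertain. Its share of the joint *Cpt1a* and *Cpt1b* level per kb was 14.1% ± 4.05 in *fat-1* and 9.96% ± 2.67 in WT mice from the row with its symbol (exact permutation test, two-sided, p = 0.2). From the locus sums, most of which is *Chkb*, it was 64.7% ± 6.60 and 63.9% ± 3.38 (exact permutation p = 1.0).

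The acyl-CoA dehydrogenases did not separate the groups either. *Acadl* had 238, 144 and 199 CPM in *fat-1* mice and 237, 218 and 158 in WT mice. The lowest and the highest value were both from *fat-1* mice, and the group means of 194 ± 47.6 and 204 ± 41.7 CPM differed by -0.08 on the log2 scale (SE 0.23, interval -0.63 to 0.47). The locus held a row with no symbol beside the *Acadl* row, and the *Acadl* row took 80.3% ± 3.82 of the counts in *fat-1* and 80.0% ± 1.30 in WT mice (exact permutation test, two-sided, p = 1.0). *Acadvl* had 77.4, 57.9 and 63.7 CPM in *fat-1* and 66.7, 71.0 and 61.3 CPM in WT samples, with means of 66.3 in both groups and a narrower interval, -0.32 to 0.32. On the opposite strand, exons of *Dvl2*, which encodes a Dishevelled protein of Wnt signalling, cover 1151 of its 2686 exon bases (42.9%), and whether counting used the strand is not stated. *Acadm* was steady, with 23.1, 20.8 and 23.5 CPM in *fat-1* and 24.1, 22.0 and 24.2 CPM in WT samples (log2 fold change -0.06, SE 0.10, interval -0.31 to 0.19). Per kb the log2 ratio of *Acadl* to *Acadm* was 4.05 ± 0.29 in *fat-1* and 4.07 ± 0.35 in WT mice (exact permutation test, two-sided, p = 1.0).

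**Figure D3:**
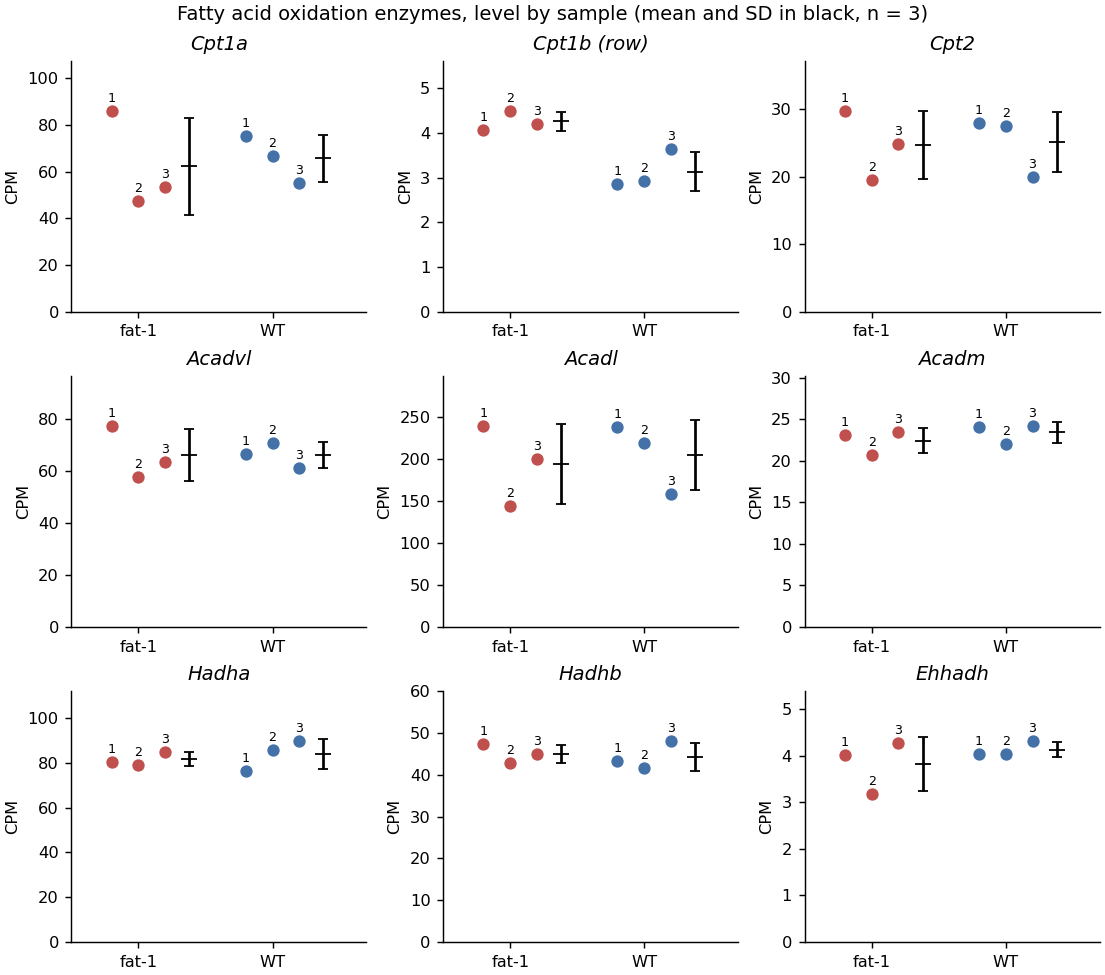
Level in CPM of each of the 9 genes in the 3 *fat-1* (red) and 3 WT (blue) samples, numbered by replicate, with the group mean and SD in black; *Cpt1b* is the row with its symbol and the others are locus sums. Only in the *Cpt1b* panel do the points of the groups not overlap.

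The 2 subunits of the trifunctional protein, encoded back to back around the interval printed above, were among the steadiest. *Hadha* had 80.5, 79.2 and 85.1 CPM in *fat-1* and 76.5, 85.9 and 89.6 CPM in WT samples (log2 fold change -0.04, SE 0.09, interval -0.27 to 0.18). *Hadhb* had 47.3, 42.8 and 45.0 CPM in *fat-1* and 43.4, 41.6 and 48.0 CPM in WT samples (log2 fold change 0.02, SE 0.10, interval -0.22 to 0.26). In both the groups overlapped, and the log2 ratio of *Hadha* to *Hadhb* per kb was 0.45 ± 0.08 in *fat-1* and 0.52 ± 0.11 in WT mice (exact permutation test, two-sided, p = 0.5). *Ehhadh*, the peroxisomal enzyme, was low, with 4.02, 3.18 and 4.27 CPM in *fat-1* and 4.03, 4.05 and 4.31 CPM in WT samples. *Fat-1* sample 2 lay below the other five, and the difference was -0.11 (SE 0.16, interval -0.49 to 0.27). Its log2 ratio to *Hadha* per kb was -2.88 ± 0.18 and -2.79 ± 0.09 (exact permutation test, two-sided, p = 0.7).

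Across the 9 locus sums, 0 passed an adjusted p of 0.05 by edgeR, 0 had an unadjusted p of 0.05 or less, and in 0 did the groups not overlap. Over all 24061 loci tested the same measures were met by 0.0%, 1.14% and 4.15%. Of the rows with the members' symbols, 0 of 9 passed the adjusted threshold against 0.0% of 30683 rows, and 1 of 9, *Cpt1b*, met each of the other two. DESeq2 also called 0 of the 9 in either form of the table. The estimates were below 0 for 8 locus sums and above 0 for 1, *Hadhb*, with a median of -0.06 beside 0.00 over all loci. Of these 9 estimates, 7 changed sign when some sample was left out. The 8 include the *Cpt1b* locus sum, which is mostly *Chkb* and whose estimate is the median. For the rows with the members' symbols, 6 estimates were below 0 and 3 above, with a median of -0.04. The median size of the locus sum estimates was 0.06, beside 0.11 over all loci. The intervals of the 9 locus sums together reached from 0.627-fold to 1.43-fold, and differences within these bounds were not resolved with 3 samples per group. These bounds do not hold for *Cpt1b* itself, as its locus sum is mostly *Chkb*. The interval of the *Cpt1b* row reached 1.81-fold, and that of the sum without the *Chkb* row ran from -1.60 to 0.08 on the log2 scale.

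**Figure D4:**
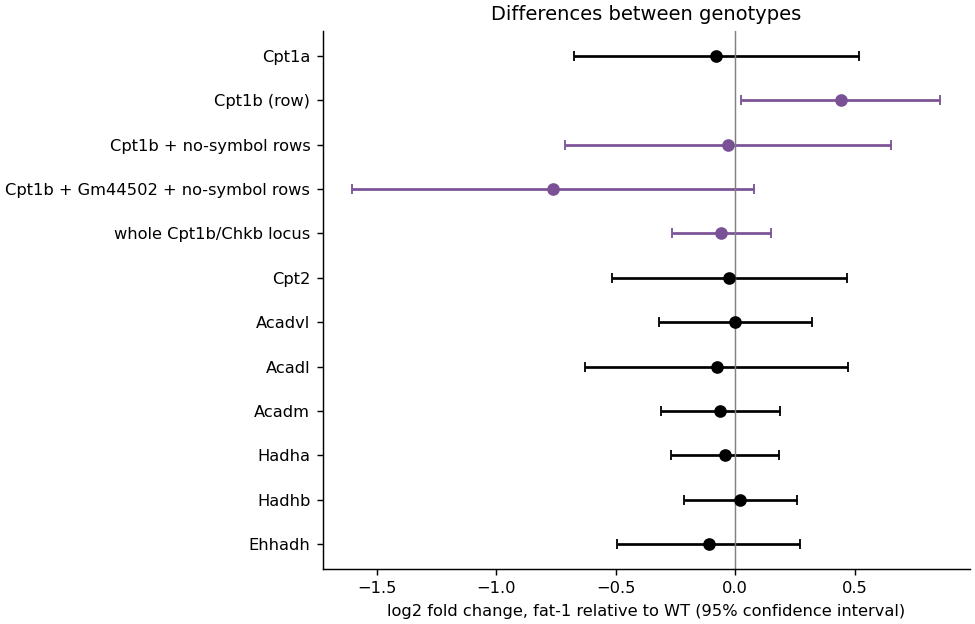
Log2 fold change in *fat-1* relative to WT samples, with its 95% confidence interval, for the locus sums (black) and for *Cpt1b* as its row and as 3 sums of rows (purple). All black intervals cross 0, and the *Cpt1b* estimates run from 0.44 for the row to -0.76 when *Gm44502* and the row with no symbol are added.

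The enzymes differed among themselves in how much they varied over the 6 samples. The highest sample exceeded the lowest 1.81-fold for *Cpt1a*, 1.66-fold for *Acadl* and 1.52-fold for *Cpt2*, but only 1.16-fold for *Acadm*, 1.17-fold for *Hadha* and 1.15-fold for *Hadhb*. The coefficients of variation were 22.9%, 20.3% and 17.2% for the first 3 and 5.77%, 5.90% and 5.70% for the last 3, and *Acadvl* (10.6%) lay close to the median of 10.2% over 9596 loci with at least 10 CPM. *Ehhadh* had 10.3%, at a level below that minimum. As a description over 6 samples, *Acadl* and *Cpt2* followed each other most closely (Pearson r = 0.988 on log2(CPM + 1)), and *Acadvl* followed *Cpt1a* (0.916). *Hadha* had r between -0.35 and -0.12 with each of these genes.

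Of the variable enzymes, *Acadl* and *Cpt2* were high where epithelial markers were high. By the mean log2(CPM + 1) of the luminal and basal markers the samples lay in 3 pairs, each of 1 *fat-1* and 1 WT sample: sample 1 of both groups was highest, *fat-1* 3 and WT 2 were in the middle, and *fat-1* 2 and WT 3 were lowest. *Acadl* had 238 and 237 CPM in the highest pair, 199 and 218 in the middle and 144 and 158 in the lowest. *Cpt2* had 29.7 and 27.9, 24.8 and 27.4, and 19.6 and 19.9 CPM in the same order. Over the 6 samples the epithelial score correlated with *Acadl* at r = 0.970 (p = 0.00278 by exact permutation, 0.0375 after adjustment for the 27 relations computed; rho = 0.943, p = 0.0167, adjusted p = 0.112) and with *Cpt2* at r = 0.954 (exact permutation p = 0.00694, adjusted p = 0.0469; rho the same). The mean level of the immune markers ran in reverse, with r = -0.975 for *Acadl* and -0.978 for *Cpt2* (for each, exact permutation p = 0.00417, adjusted p = 0.0375, rho = -0.943, adjusted p for rho = 0.112). Without the 2 samples farthest from the median, *fat-1* 2 and WT 3, r was 0.898 and -0.9998 for *Acadl* and 0.736 and -0.926 for *Cpt2*. Since the samples form pairs, these values rest on few distinct marker levels.

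*Cpt1a* (r = 0.877 with epithelial and -0.912 with immune markers, exact permutation p = 0.0389 and 0.0208, adjusted p = 0.15 and 0.112; rho = 0.886 and -0.829) and *Acadvl* (0.798 and -0.856, exact permutation p = 0.0569 and 0.0347, adjusted p = 0.171 and 0.15; rho = 0.829 and -0.886) had the same signs without passing the correction. Without the same 2 samples r was 0.829 and -0.963 for *Cpt1a* and 0.400 and -0.641 for *Acadvl*. For the *Cpt1b* locus (r = 0.26 and -0.31), *Hadha* (-0.50 and 0.49), *Hadhb* (-0.04 and 0.15), *Acadm* (0.41 and -0.29) and *Ehhadh* (0.37 and -0.30) the exact permutation p was at least 0.307 for r and 0.136 for rho. Several of these values rested on the 2 samples left out: without them r was 0.839 and -0.969 for the *Cpt1b* locus, -0.947 and 0.798 for *Hadha*, -0.655 and 0.912 for *Ehhadh*, 0.425 and -0.195 for *Hadhb*, and 0.593 and -0.217 for *Acadm*. With the adipocyte markers r ran from -0.84 (*Hadhb*) to 0.42 (*Acadl*), and 0 of 9 relations passed the correction. Here *fat-1* 1 and WT 3 were farthest from the median, and without them r was 0.997 for *Cpt2* (0.40 with them), 0.983 for *Acadl*, 0.953 for *Acadvl* (0.04), 0.913 for *Cpt1a* (0.04), 0.832 for *Ehhadh* (-0.02) and 0.711 for *Acadm* (-0.13), and -0.149 for *Hadhb*. For the *Cpt1b* locus r was 0.299 without them (-0.23 with them), and for *Hadha* 0.187 (-0.32). The adipocyte score itself ran only from 0.971 in WT 3 to 1.19 in WT 2. With 4 samples these values of r are a description only. In all, 4 of the 27 relations passed by r and 0 by rho. These 4 are not independent of each other. They join *Acadl* and *Cpt2*, which followed each other closely, to epithelial and immune scores that ran nearly in reverse of each other. With the epithelial score as a term in the edgeR fit, 0 of the 9 locus sums and 0 of the 9 rows passed the adjusted threshold, and the *Cpt1a* estimate was -0.09.

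**Figure D5:**
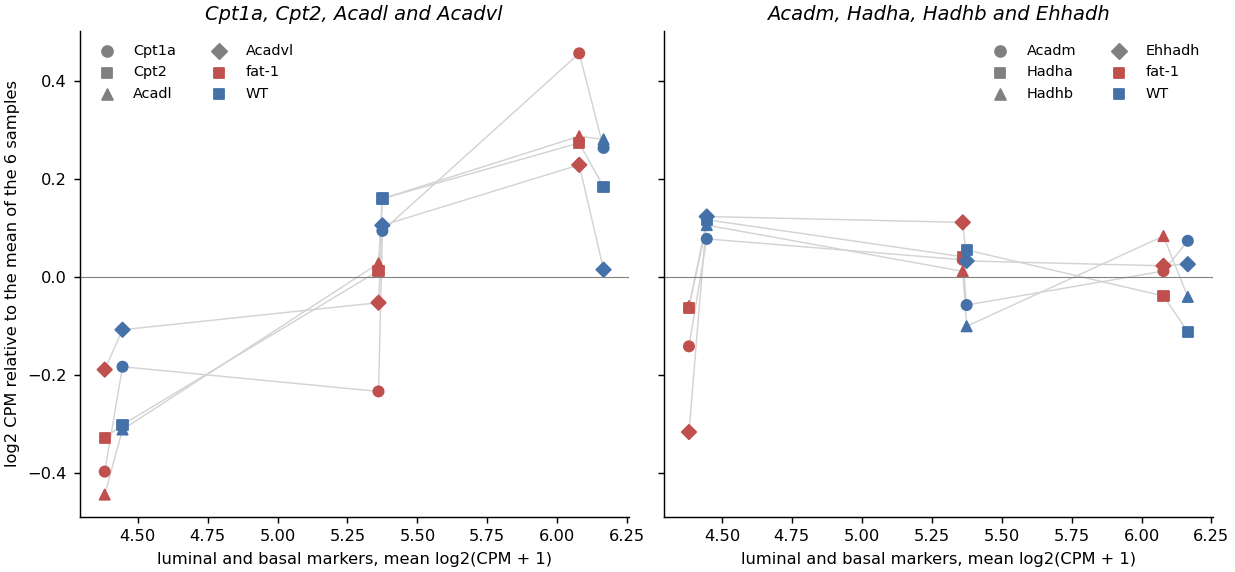
Log2 CPM of each gene relative to its own mean over 6 samples, against the mean log2(CPM + 1) of luminal and basal markers, for *fat-1* (red) and WT (blue) samples; grey lines join the samples of 1 gene. On the left *Cpt2* and *Acadl* are higher in the samples with more epithelial marker RNA. *Cpt1a* and *Acadvl* follow it less evenly: *Cpt1a* is lower in *fat-1* 3 than in WT 3, and *Acadvl* is higher in WT 2 than in WT 1. On the right *Acadm*, *Hadha* and *Hadhb* stay near 0, with *Ehhadh* lower in *fat-1* sample 2.

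The mean log2(CPM + 1) of the 9 locus sums was 5.57, 5.22 and 5.40 in *fat-1* and 5.51, 5.47 and 5.37 in WT samples. The difference was -0.05 with overlapping groups, and 0.04 without *fat-1* sample 2. This mean includes the *Cpt1b* locus sum, most of which is *Chkb*. From the rows with the symbols alone the difference was -0.003. Loci with a symbol and at least 10 CPM, 9392 in all, were compared with the mean of the locus sums over the 6 samples. Those most like it were *Smarcc1* (Pearson r = 0.995), the locus shared by *Sac3d1* and *Snx15* (0.992), *Tbcc* (0.991), *Dnajc3* (0.988) and *Ppp2r1a* (0.988). They were picked as the highest of 9392 values over only 6 samples, so high r is built into the choice. A relation to fatty acid oxidation was not tested.

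The rest of the pathway was read from 4 lists of 67 genes, all of which were tested. In 0 of the 67 was the adjusted p at or under 0.05 by edgeR or by DESeq2, and 1 (1.49%) had an unadjusted p that low by edgeR, against 1.14% of all loci. The estimate was below 0 in 52 of the 67 (77.6%) and in 49.4% of all loci; these genes share the same 6 samples and are not independent of each other. Of 15 genes for fatty acid uptake, activation and the carnitine shuttle, 13 were below 0 and 2 above (median -0.14). Of 17 other mitochondrial enzymes, 15 were below and 2 above (median -0.05). Of 16 peroxisomal genes, 9 were below and 7 above (median -0.02), and of 19 regulators and PPAR targets, 15 and 4 (median -0.09).

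The gene with the unadjusted p was *Fabp4*, a fatty acid binding protein of adipocytes and capillary endothelium. It had 93.6, 106 and 83.2 CPM in *fat-1* and 112, 126 and 112 CPM in WT samples, and the groups did not overlap. The log2 fold change was -0.31 (SE 0.12, unadjusted p = 0.0370, adjusted p = 1.00 by edgeR). The unadjusted p was 0.0860 by the exact test and 0.0857 by the likelihood ratio test of edgeR, and 0.0660 to 0.120 when any 1 sample other than *fat-1* 2 was left out. The summed endothelial markers ranged from 197 to 246 CPM in *fat-1* mice and from 222 to 271 in WT mice, and their part in this difference was not tested. *Fabp5*, the binding protein of epidermis and other epithelia, was next at 28.7 ± 5.24 against 36.2 ± 4.19 CPM, with overlapping groups.

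Among the mitochondrial enzymes the smallest p-values belonged to *Etfdh*, which passes electrons from the dehydrogenases to ubiquinone (41.6 ± 2.66 against 44.2 ± 1.10 CPM, in a locus shared with *Gm37973*), and to *Hadh*, the hydroxyacyl-CoA dehydrogenase for shorter chains (12.4 ± 2.68 against 14.1 ± 2.40). In the peroxisomal list they belonged to the thiolase gene *Acaa1b* and to *Crot*, which makes carnitine esters of medium chains for export. *Acaa1b* had 0.346, 0.606 and 0.764 CPM in *fat-1* and 1.30, 1.43 and 0.623 CPM in WT samples (log2 fold change -0.97, SE 0.42, unadjusted p = 0.0562, adjusted p = 1.00 by edgeR), so WT sample 3 lay within the *fat-1* range. *Crot*, in a locus shared with *Gm27941*, had 12.8, 12.4 and 12.5 CPM in *fat-1* and 13.0, 14.5 and 15.1 CPM in WT samples; the groups did not overlap (log2 fold change -0.18, SE 0.11). Over the 4 lists this held for 3 of 67 genes (4.48%), *Fabp4*, *Crot* and the low *Fabp3*, named after its values had been seen (0.385 ± 0.0711 against 0.488 ± 0.0513 CPM), beside 4.15% of all loci.

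Of the regulators and PPAR targets, *Ppara*, which encodes PPAR alpha, was low. It had 0.303, 0.158 and 0.240 CPM in *fat-1* and 0.224, 0.247 and 0.0973 CPM in WT samples. *Ppard*, for PPAR delta, had 131, 127 and 139 CPM in *fat-1* and 116, 146 and 121 CPM in WT samples. *Pdk4*, the kinase that turns off pyruvate dehydrogenase, had 6.66, 6.10 and 5.56 CPM in *fat-1* and 7.28, 13.8 and 6.37 CPM in WT samples. WT sample 2 stood apart from the other five, and over the settings tried the log2 fold change ran from -0.77 to -0.16.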

How the data were processed

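RNA-Seq was analysed from 3 *fat-1* and 3 WT samples, grouped by the genotype in the labels. According to the study's methods, the authors aligned reads to GRCm38 with HISAT2 and assembled transcripts with StringTie; versions, the strand setting and the step from coverage to counts are not given in the sources used here. The deposited values are whole-number counts per gene row, 204539059 to 232148824 per sample, and may not equal numbers of reads. Rows with the same locus number were added together. edgeR 4.0.16 (R 4.3.3) was applied to all loci and all rows: filterByExpr, TMM scaling, the quasi-likelihood test and Benjamini-Hochberg adjustment at 0.05, with genotype as the only term. Ratios and shares were compared by two-sided exact permutation tests, which cover the spread between these pooled samples only. Lengths came from GENCODE M21 (GRCm38) and promoter windows from RefSeq (GRCm38.p6). Alternatives were DESeq2 1.42.0, other edgeR tests, size factors and filters, a replicate block, an epithelial marker term, other row sums and lengths, and leaving out each sample. The scripts were tested on simulated data. Members and lists were chosen with earlier results of these data known. Besides the members, named genes were those with a symbol in a member's locus, the 2 smallest p-values in each list, the 5 loci most like the members' mean, and the highest gene of each marker list. Outside this rule, *Adipoq*, *Plin1*, *Ucp1*, *Cidea*, *Fabp3*, *Ppara* and *Ppard* were named after their values had been seen. A gene that this rule names is not reported here. The labels do not say that same-numbered samples are related, and their deviations from the group means did not all correlate, so samples were not treated as pairs.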

Additional observations from a re-analysis of the deposited data

How the results depend on the processing

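In each alternative, 0 of the 9 locus sums and 0 of the 9 rows passed the adjusted threshold. Of 421 values recomputed under another setting, 42 changed sign, among them 8 correlations with marker levels recomputed without 2 samples and the mean level of the 9 members (0.04 without *fat-1* sample 2, beside -0.05). Leaving out each sample in turn gave log2 fold changes for the locus sums of -0.37 to 0.082 (*Cpt1a*), -0.17 to 0.12 (*Cpt2*), -0.24 to 0.10 (*Acadl*; its row -0.25 to 0.14), -0.12 to 0.087 (*Acadvl*), -0.10 to 0.019 (*Hadha*), -0.021 to 0.095 (*Hadhb*) and -0.20 to 0.0056 (*Ehhadh*), and of -0.010 to 0.097 for the *Chkb* row. It gave group differences of -0.22 to 0.12 in the log2 ratio of *Acadl* to *Acadm*, -0.013 to 0.20 for *Cpt2* to *Cpt1a* and -0.14 to 0.025 for *Ehhadh* to *Hadha*, and of -2.02 to 4.41 percentage points in the *Cpt1b* share of the joint *Cpt1a* and *Cpt1b* level and -0.83 to 2.52 in the share of the *Acadl* row. *Acadvl* was at 0.0053 by DESeq2 and with its size factors, beside -0.0005. The *Cpt1b* share differed by -5.49 points with the *Chkb* row left out, beside 0.77, because the sum then holds other rows. The cause of the other changes was not tested. The *Cpt1b* row kept a positive estimate throughout (0.38 to 0.56), with unadjusted p from 0.0105 to 0.226; it was above 0.05 by the exact, likelihood ratio and older quasi-likelihood tests of edgeR, with the replicate block, and when any 1 sample other than WT 3 was left out.

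Over all loci, 0 passed the adjusted threshold by the quasi-likelihood test (274 at an unadjusted p of 0.05), 8 by DESeq2, 6 by the exact test and 7 by the likelihood ratio test; for rows these were 0 (678), 93, 32 and 38. The replicate block, with the number of the labels as a term, gave 0 members called, 376 loci and 784 rows at an unadjusted p of 0.05, and a *Cpt1a* estimate of -0.12. Same-numbered samples correlated at 0.80, -0.16 and 0.13, and *fat-1* samples 2 and 3 correlated best with another number. With 3 samples per group, differences within the intervals given were not resolved; other depths were not tried.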
